A study of Homo sapiens with 48 samples.

Results

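RNAseq of PSN1 cells, a pancreatic cancer line, was examined for 40 genes of homologous recombination (HR) and of the Fanconi anemia pathway. The genes were chosen by symbol from a list of HR and Fanconi anemia factors. All 40 were found among the 20241 protein coding genes of the deposited table, and all 40 were above 1 CPM in each of the 9 libraries. The 9 libraries form 3 groups of 3 replicates, and all cells were grown in RPMI1640 with 10% FBS. Parental cells carry the genotype label WT and had no treatment at day 0. TalaR cells had been selected for resistance. TalaR-M cells are TalaR cells kept in 50 nM Talazoparib, a PARP inhibitor, and labelled 4 months. TalaR-DF cells are TalaR cells moved to medium without drug, with no treatment at day 0 as their label, and the methods give 4 weeks of drug-free culture. In the paper, PSN1 TalaR cells regained nearly the parental sensitivity to Talazoparib over 4 weeks without drug. TalaR-DF values are thus those of cells after selection and withdrawal, not of cells that were still resistant. PSN1 was among lines without BRCA mutation. TalaR-M and TalaR-DF go back to a selection in rising drug concentrations, and nothing in the labels says that their replicates stand for separate selections. The labels do not say that the replicates came from separate cultures. The p-values therefore measure only the spread between these libraries, which may be technical. Another 39 libraries of the series, from other lines and from DMSO or Talazoparib treated cells, were not analysed here.

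HR repairs a broken chromosome from the intact sister copy. The broken ends are resected to single strands, BRCA1, BARD1, PALB2 and BRCA2 prepare these strands, and a protein filament formed on them invades the sister. The Fanconi anemia proteins detect crosslinked DNA strands at stalled forks, and their core complex attaches ubiquitin to FANCD2 and FANCI, after which nucleases and HR complete the repair. PARP inhibitors kill cells that lack HR, which is why these genes are studied in PARP inhibitor resistance.

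Each value is a log2 CPM, in which CPM is a gene's read count scaled to a fixed library size. Recovered whole reads on genes above 1 CPM numbered between 8387755 and 14973847 per library, and 1 CPM stood for 6.97 to 14.5 reads. A value of an HR or Fanconi gene rested on 28 to 2307 reads, with a median of 333. The intervals and SE below cover the spread between libraries only. Of the epithelial markers examined, 8 were above 1 CPM in all 9 libraries, with KRT8 at 9.09 log2 CPM or more, whereas CDH1 and PDX1 were at 0 in all 9. Of 10 markers of other cell types, 6 were at 0 in all 9 libraries, and the others were PECAM1, PTPRC, CPA1 and PRSS1, which reached at most 3.84, 1.79, 1.58 and 1.22 log2 CPM. The 10 markers summed to 4.16 to 4.17 log2 CPM in parental, 1.54 to 2.09 in TalaR-DF and 3.11 to 3.49 in TalaR-M. PECAM1 was lower than in parental cells by 2-fold or more in both (-2.17 and -1.53). In TalaR-DF, PRSS1 (-1.08) and CPA1 (-0.98) were lower too, but their TalaR-DF values were at 0 log2 CPM. Both thus entered that test only through parental libraries, and the size of their change is set by the floor. In TalaR-M, PRSS1 was at -0.67, CPA1 at 0.37 and PTPRC at 0.87, with adjusted p above 0.05 in limma's test. Without TalaR-M replicate 2 they were at -1.08, 0.26 and 1.31, with adjusted p of 2.55e-05, 0.214 and 0.000333 in limma's test. PTPRC was not tested in TalaR-DF, where too few libraries held it above 1 CPM. Values this close to 0 log2 CPM are uncertain. The part of these markers in the results was not tested. In bulk RNA, fewer cells of a type and less RNA per cell cannot be told apart.

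TalaR-M replicate 2 stood apart from the other libraries. It had the 8387755 reads given above, against at least 12213605 in each of the other 8. Across the 10512 genes whose mean exceeded 2 log2 CPM, it correlated with the other TalaR-M libraries at r = 0.780 at most, while TalaR-M replicates 1 and 3 correlated at 0.994. It was lower than the mean of replicates 1 and 3 in 32 of the 40 HR and Fanconi genes, by more than 2-fold in 18. In 1 of the 40 it was more than 2-fold higher. Of the 10512 genes, 46.2% lay more than 2-fold from that mean in either direction, a share near that of the 40 genes. How many of the 10512 lay below that mean was not counted, so the 32 cannot be set against them. The difference ranged from -2.52 for WRN to 1.10 for XRCC3, with a median of -0.94, against -0.42 over the 10512 genes. The difference varied with transcript length, with exceptions. Among the 10 members with the shortest canonical transcripts (878 to 2567 bases) the median was 0.28, and among the 10 longest (7088 to 12915 bases) it was -1.59. FANCL and RAD51AP1 were short and far below 0 (-1.70 and -1.93), and RAD51D was long and near 0 (-0.063). Across the 40 genes Pearson's r with log2 length was -0.55, and across the 9879 of the 10512 genes with a length it was -0.64; both are descriptions across genes within one library, and genes are not independent replicates. Results on TalaR-M are therefore given with and without replicate 2.

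**Figure D1:**
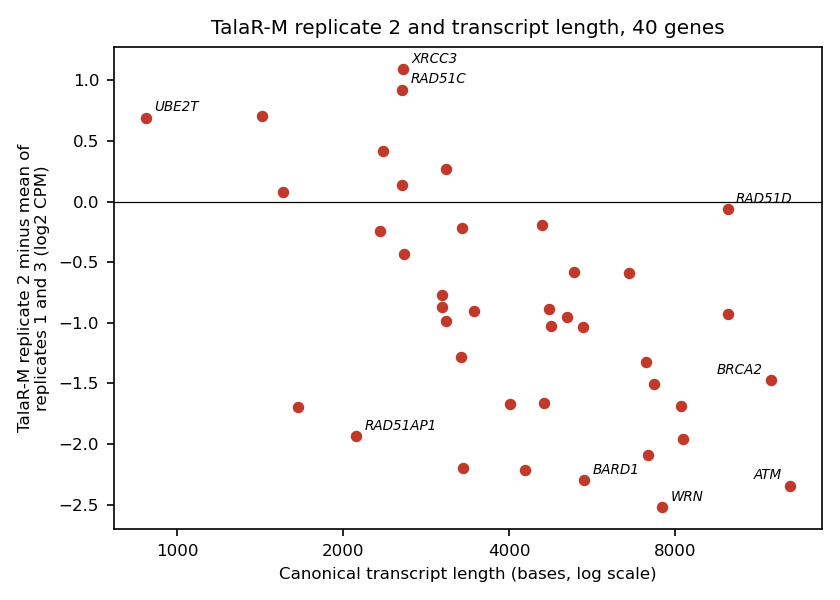
Difference of TalaR-M replicate 2 from the mean of replicates 1 and 3 (vertical axis, log2 CPM) against canonical transcript length (horizontal axis, bases, log scale), with 1 point for each of the 40 genes. The short UBE2T lies above 0 and the long ATM and WRN lie far below 0, while the short FANCL and RAD51AP1 also lie far below 0 and the long RAD51D lies near 0.

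Whether HR and Fanconi transcripts differ after selection in Talazoparib was first asked in cells without drug, by comparing TalaR-DF and parental cells. In TalaR-DF cells, 34 of the 40 genes were higher than in parental cells and none was lower. FANCA, DNA2, BRCA2, RAD54B and FANCM rose by at least 2-fold, and BARD1 and RAD51AP1 came close to that. ATM, RAD51B, RMI2, MUS81, FANCE and FANCF did not pass the test. A gene passed at an adjusted p under 0.05 in limma's moderated test on the 6 libraries, with Benjamini-Hochberg adjustment over all 12165 genes tested. Of all genes tested, 34.2% passed as higher, and of the HR and Fanconi genes 85% did. Another 32% of all genes passed as lower, against 0 of the 40, and at an unadjusted p under 0.05 the count was also 0. The share at least 2-fold higher was 2.8% of all genes and 12.5% of the 40 (5 genes). The median log2 fold change was 0.49 over the 40 genes and 0.022 over all genes tested. All 3 TalaR-DF libraries lay above all 3 parental libraries for 34 of the 40 genes, and for 36.2% of all genes tested. When all 9 libraries shared the spread, TalaR-M replicate 2 entered it and 4 of the 40 passed.

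In TalaR-M cells with all replicates, 5 of the 40 genes passed as higher than parental, namely RAD51C, RAD51D, XRCC3, RAD54B and FANCC. That share, 12.5%, was near the 10.3% of all 12471 genes tested. None of the 40 passed as lower in limma's test, with 1 at an unadjusted p under 0.05, against 13.2% of all genes. RAD51C and XRCC3 rose at least 2-fold, as did 5.53% of all genes. Without replicate 2, the count of higher genes was 26 of 40, or 65%, against 30.2% of all genes. RMI2 and FANCF then passed as lower, against 30% of all genes, and BRCA2, XRCC3, RAD51AP1 and FANCA rose at least 2-fold, against 6.78% of all genes. The median over the 40 genes was 0.095 with replicate 2 and 0.43 without it, and over all genes tested -0.091 and 0.011. Replicates 1 and 3 both lay above all 3 parental libraries for 32 of the 40 genes, and for 37.9% of all genes tested. Replicate 2 lay below all 3 for 27 of the 40 and above all 3 for 11. The matching shares of all genes were not counted for replicate 2, so these counts cannot be set against them. With parental replicate 1 left out, 3 genes passed instead of 5. The TalaR-M and TalaR-DF comparisons share the 3 parental libraries and are not independent of each other.

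**Figure D2:**
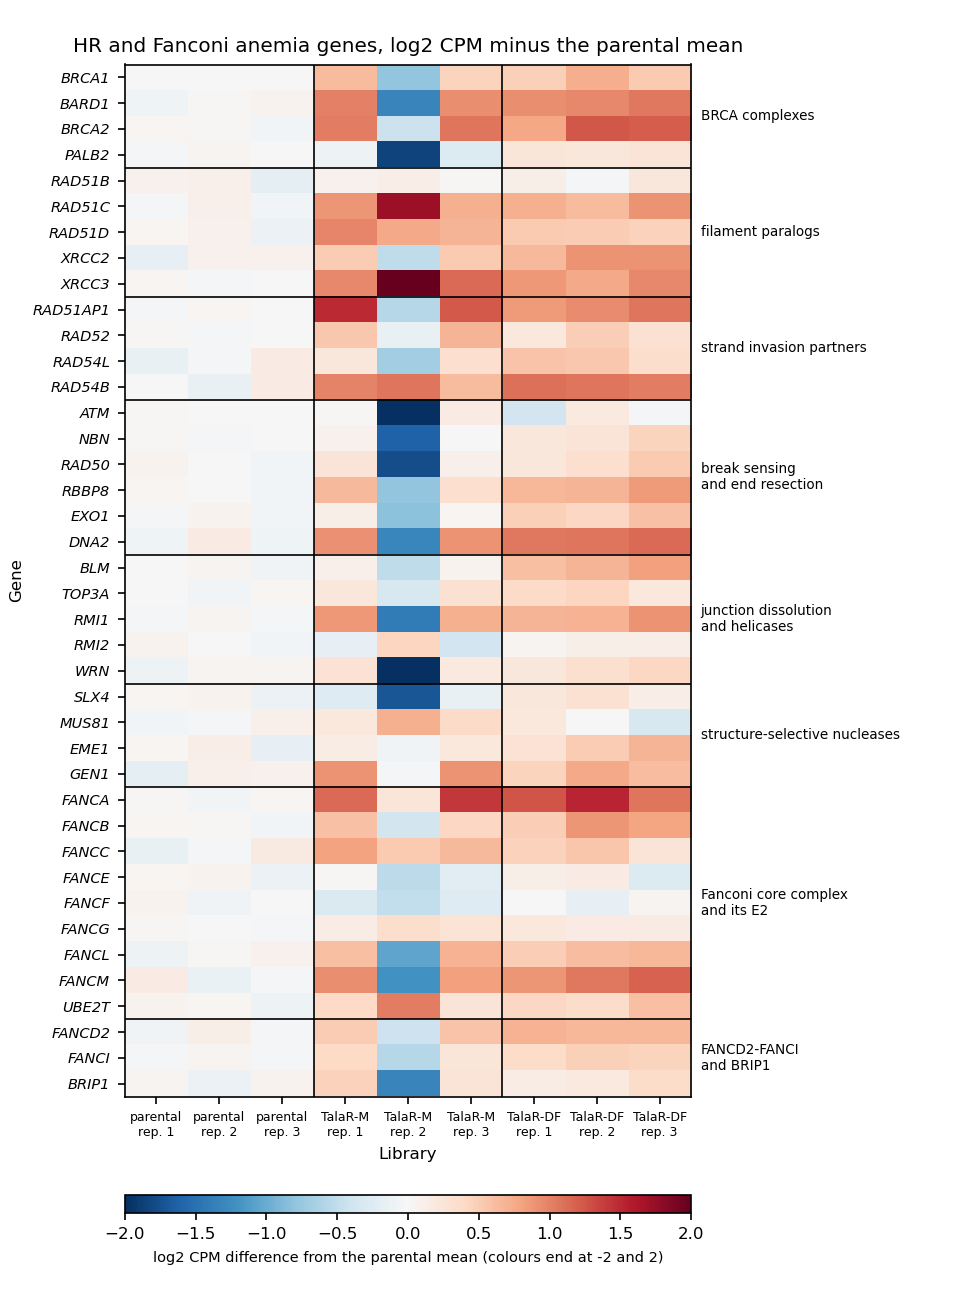
Log2 CPM of each of the 40 genes (lines, grouped by role) in each of the 9 libraries (columns), shown as the difference from the parental mean on a colour scale that ends at -2 and 2. The 3 TalaR-DF columns and TalaR-M replicates 1 and 3 are mostly red (higher), and the TalaR-M replicate 2 column is mostly blue (lower), with RAD51C and XRCC3 at its red end.

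**Figure D3:**
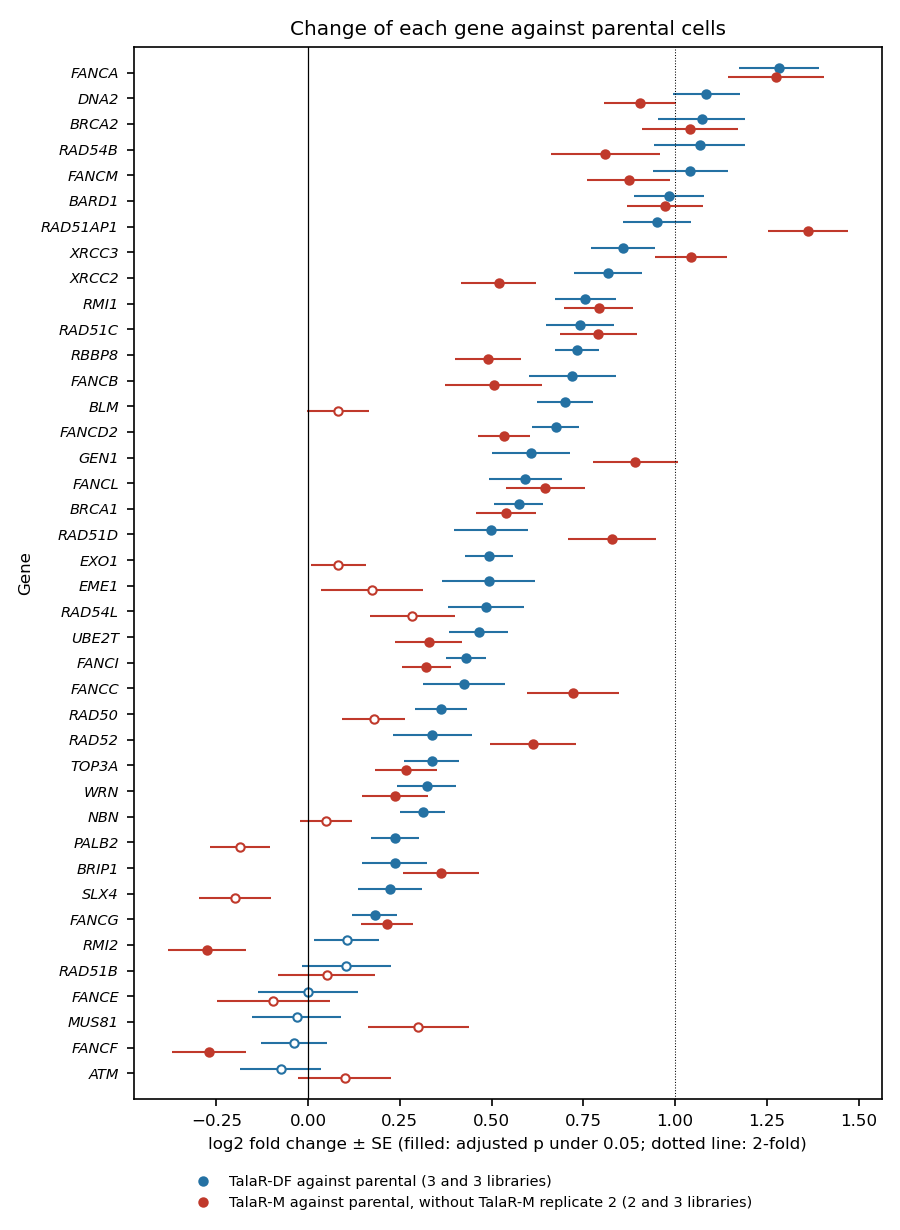
Log2 fold change against parental cells with its SE (horizontal axis) for each of the 40 genes (vertical axis), in TalaR-DF cells (blue) and in TalaR-M cells without replicate 2 (red). Filled points passed an adjusted p under 0.05, which 34 genes did in TalaR-DF and 28 in TalaR-M, and 5 and 4 genes lie past the dotted line at 2-fold.

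TalaR-M and TalaR-DF cells were compared to ask what differs between TalaR cells in and out of drug. With all replicates, BLM passed as lower in TalaR-M, 1 of the 40 genes against 4.25% of all genes tested. None passed as higher, against 7.79% of all genes, and 1 did so in limma's test at an unadjusted p under 0.05. Without replicate 2, PALB2, XRCC2, NBN, RBBP8, EXO1, BLM, RMI2 and SLX4 passed as lower, 20% of the 40 genes against 25.3% of all genes. RAD51D and RAD51AP1 passed as higher, 5% against 23.5%. The share that passed as lower was thus near that of all genes, and the median without replicate 2 was -0.090 over the 40 genes and -0.016 over all. With all replicates the medians were -0.45 and -0.088. Also without replicate 2, the 95% interval of the difference lay within 2-fold for all 40 genes and within 1.5-fold for 32. The BLM call with all replicates was lost when any parental or any TalaR-DF library was left out, and it held when any of the 3 TalaR-M libraries was left out. It was also lost with only the TalaR-M and TalaR-DF libraries in the fit (adjusted p = 0.129).

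The promoters were searched because the members mostly moved one way. RefSeq promoters (GRCh38.p14, 250 bases before to 50 after the start site, 300 in all) were at hand for 34 of the 40 genes. The E2F words TTTCGCGC, TTTGGCGC, TTTCCCGC and TTTGCCGC were sought on both strands, and E2F factors are known to bind such words at genes of DNA synthesis. At least 1 of them lay in 6 of the 34 promoters (17.6%), in 5.3% of 9562 promoters of genes above 1 CPM in at least 3 libraries, and in 3.33% of all 27303 promoters of the table. The word CCAAT lay in 38.2% of the member promoters, in 36.3% of the expressed ones and in 35.7% of all. TTTGAA, the CHR word of late cell cycle genes, lay in 11.8%, 9.55% and 15.4%. A match is a description of letters in this window and says nothing of binding in these cells. The 6 stretches that hold an E2F word are shown on the strand of the gene, with 30 bases before the word and, in FANCA and FANCC, 30 after it. Capitals mark the word, or its reverse complement where it lies on the other strand. They lie at chr7:152676113-152676150 (minus strand), chr1:241848178-241848215 (plus), chr2:17753840-17753877 (plus), chr16:89816782-89816849 (minus), chr9:95317718-95317911 (minus) and chr3:10026405-10026442 (plus).
XRCC2: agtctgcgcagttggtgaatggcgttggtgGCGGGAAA
EXO1: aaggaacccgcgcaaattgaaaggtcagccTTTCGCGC
GEN1: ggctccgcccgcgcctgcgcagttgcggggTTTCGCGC
FANCA: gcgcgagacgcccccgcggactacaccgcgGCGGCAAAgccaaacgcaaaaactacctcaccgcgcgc
FANCC: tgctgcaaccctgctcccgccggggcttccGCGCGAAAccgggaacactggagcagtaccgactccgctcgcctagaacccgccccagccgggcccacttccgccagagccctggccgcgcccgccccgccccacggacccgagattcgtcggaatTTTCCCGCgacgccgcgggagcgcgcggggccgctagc
FANCD2: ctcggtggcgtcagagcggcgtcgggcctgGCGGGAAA
The word begins 172 bases before the start site in FANCA and 2 before it in FANCD2, and FANCC holds words 172 and 46 bases before its start. In XRCC2, EXO1 and GEN1 it begins 21, 4 and 1 bases after the start. All 6 genes passed as higher in TalaR-DF, as most of the other members did. XRCC3 held 5 CCAAT words in its 300 bases, 3 of them in the 150 bases before its start, and FANCM, which like XRCC3 is described below, held 1 there. The 150 bases before its start (chr14:103715452-103715601, minus strand) and of FANCM (chr14:45135780-45135929, plus strand) are shown with CCAAT or its reverse complement ATTGG in capitals.
XRCC3: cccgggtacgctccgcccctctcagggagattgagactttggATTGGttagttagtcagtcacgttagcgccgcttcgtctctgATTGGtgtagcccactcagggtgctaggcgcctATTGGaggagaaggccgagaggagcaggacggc
FANCM: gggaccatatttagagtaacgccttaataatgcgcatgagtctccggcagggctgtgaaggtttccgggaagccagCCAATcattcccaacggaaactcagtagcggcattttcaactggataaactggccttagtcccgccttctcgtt

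Break sensing and end resection come first in the pathway. Positions below are those of the whole gene on hg38 in GENCODE 44, and changes are log2 fold changes. The counts by role below stand beside 34.2% of all genes that passed as higher in TalaR-DF. In TalaR-M that share was 10.3% with all replicates and 30.2% without replicate 2. In TalaR-DF cells 5 of the 6 genes of this group passed as higher, all but ATM, and in TalaR-M cells RBBP8 and DNA2 passed without replicate 2 and none with it. ATM, the kinase that signals double-strand breaks (chromosome 11, 108223044 to 108369102), measured 6.82, 6.79 and 6.80 log2 CPM in parental replicates 1, 2 and 3, 6.42, 7.0 and 6.76 in TalaR-DF and 6.83, 4.56 and 6.97 in TalaR-M. The TalaR-DF libraries lay on both sides of the parental ones, and the log2 fold change was -0.075 ± 0.11 (SE, adjusted p = 0.566). In TalaR-M, ATM differed by -0.68 with all replicates (adjusted p = 0.397) and by 0.10 without replicate 2 (adjusted p = 0.521). DNA2, a nuclease and helicase of long-range resection (chromosome 10, 68414064 to 68472121), measured 3.94, 4.20 and 3.94 log2 CPM in parental replicates 1, 2 and 3, 5.09, 5.09 and 5.16 in TalaR-DF and 4.94, 2.72 and 4.93 in TalaR-M. All TalaR-DF libraries and TalaR-M replicates 1 and 3 lay above all parental ones, and replicate 2 lay below them. DNA2 was 2.12-fold higher in TalaR-DF (log2 1.09 ± 0.09, adjusted p = 9.24e-07). Its TalaR-M value was 0.17 (adjusted p = 0.836), and 0.90 without replicate 2 (adjusted p = 9.55e-06).

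Of the other resection genes, NBN and RAD50, subunits of the complex that binds broken ends, rose by 0.31 and 0.36 in TalaR-DF and did not pass in TalaR-M without replicate 2 (0.049 and 0.18). RBBP8, which starts resection, rose by 0.73 in TalaR-DF and by 0.49 in TalaR-M without replicate 2. EXO1, the exonuclease that acts beside DNA2, rose by 0.49 in TalaR-DF, and its value was 0.083 in TalaR-M without replicate 2 (adjusted p = 0.359). NBN, RBBP8 and EXO1 were lower in TalaR-M than in TalaR-DF without replicate 2, with changes of -0.26, -0.24 and -0.41, and none of them passed with replicate 2 included. With all replicates the 4 genes ranged from -0.50 (NBN) to 0.064 (RBBP8) against parental.

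The BRCA complexes comprise the ubiquitin ligase pair BRCA1 and BARD1, PALB2, which bridges BRCA1 to BRCA2, and BRCA2 itself. All 4 were higher in TalaR-DF, with a median of 0.78. BRCA1 (chromosome 17, 43044295 to 43170245) measured 6.07, 6.07 and 6.07 log2 CPM in parental replicates 1, 2 and 3, 6.55, 6.79 and 6.59 in TalaR-DF and 6.70, 5.29 and 6.52 in TalaR-M. The parental libraries were almost equal, with an SD of 0.0036, and all TalaR-DF libraries lay above them. BRCA1 was 1.49-fold higher in TalaR-DF (log2 0.57 ± 0.066, adjusted p = 1.33e-05), and in TalaR-M its value was 0.099 (adjusted p = 0.841) or, without replicate 2, 0.54 (adjusted p = 0.000141). BARD1 (chromosome 2, 214725646 to 214809683) measured 3.17, 3.27 and 3.31 log2 CPM in parental replicates 1, 2 and 3, 4.18, 4.21 and 4.3 in TalaR-DF and 4.26, 1.92 and 4.18 in TalaR-M. Its TalaR-M replicates 1 and 3 lay close to the TalaR-DF libraries, and replicate 2, with 28 reads, was the lowest of the 9. BARD1 rose by 0.98 ± 0.096 in TalaR-DF (adjusted p = 3.44e-06) and by 0.97 ± 0.10 in TalaR-M without replicate 2 (adjusted p = 7.79e-06), against 0.21 with it (adjusted p = 0.799).

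BRCA2, the large mediator of the group (chromosome 13, 32315086 to 32400268), measured 3.85, 3.84 and 3.76 log2 CPM in parental replicates 1, 2 and 3, 4.59, 5.05 and 5.02 in TalaR-DF and 4.83, 3.38 and 4.88 in TalaR-M. No TalaR-DF library and neither of TalaR-M replicates 1 and 3 overlapped the parental range. It was 2.1-fold higher in TalaR-DF (log2 1.07 ± 0.12, adjusted p = 9.65e-06) and 2.06-fold higher in TalaR-M without replicate 2 (log2 1.04 ± 0.13, adjusted p = 3.04e-05). With all replicates the TalaR-M value was 0.55 (adjusted p = 0.313). PALB2 (chromosome 16, 23603160 to 23641321) measured 4.97, 5.08 and 5.01 log2 CPM in parental replicates 1, 2 and 3, 5.25, 5.24 and 5.27 in TalaR-DF and 4.92, 3.16 and 4.74 in TalaR-M. It had another pattern than its partners, since every TalaR-M library lay below every parental library and every TalaR-DF library lay above. PALB2 was 1.18-fold higher in TalaR-DF (log2 0.24 ± 0.066, adjusted p = 0.00758). The TalaR-M value against parental was -0.74 (adjusted p = 0.215) and -0.19 without replicate 2 (adjusted p = 0.0662), so that it did not pass in either fit. Against TalaR-DF without replicate 2, PALB2 was lower, with a change of -0.42 ± 0.081 (adjusted p = 0.00119), whereas the 95% intervals for BRCA1, BARD1 and BRCA2 in that comparison were -0.21 to 0.15, -0.24 to 0.21 and -0.32 to 0.25. With replicate 2 the adjusted p for PALB2 was 0.153.

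**Figure D4:**
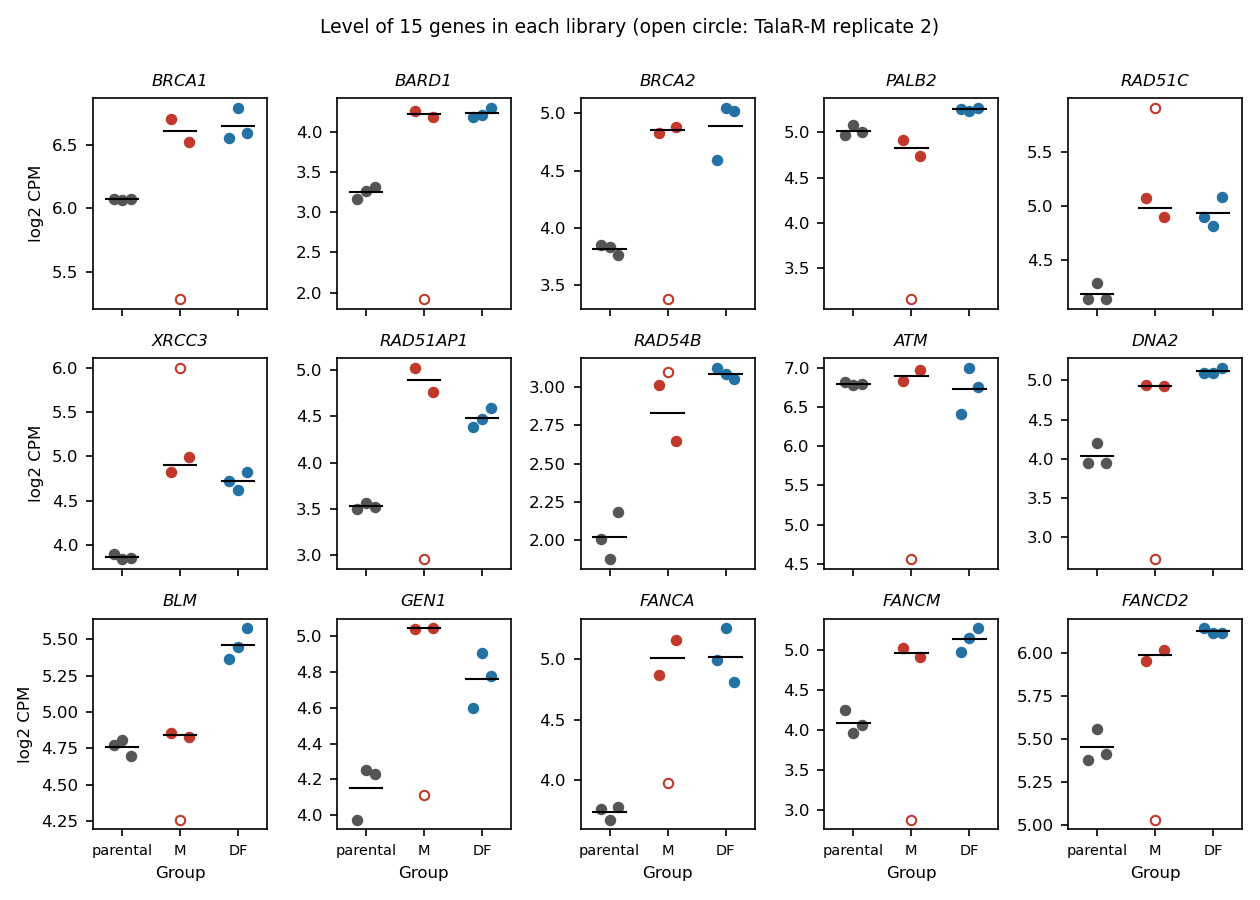
Log2 CPM (vertical axis, with its own range in each panel) of 15 genes in each library of the 3 groups (horizontal axis), with the mean as a line, drawn without TalaR-M replicate 2 (open circle). BARD1, BRCA2 and FANCA show TalaR-M replicates 1 and 3 level with TalaR-DF, BLM shows them level with parental cells, and RAD51C and XRCC3 show replicate 2 as the highest library.

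RAD51B, RAD51C, RAD51D and XRCC2 form one complex that stabilises the filament, and RAD51C and XRCC3 form another. These paralogs held 3 of the 5 genes that passed in TalaR-M with all replicates, and 4 of the 5 paralogs passed in TalaR-DF and in TalaR-M without replicate 2, all but RAD51B. RAD51C and XRCC3 have short transcripts (2562 and 2567 bases), and TalaR-M replicate 2 lay above the mean of replicates 1 and 3 by 0.92 and 1.10 in them, against -0.063 in RAD51D. RAD51C (chromosome 17, 58692573 to 58735611) measured 4.15, 4.29 and 4.14 log2 CPM in parental replicates 1, 2 and 3, 4.90, 4.82 and 5.09 in TalaR-DF and 5.07, 5.91 and 4.89 in TalaR-M. All 6 TalaR libraries lay above the parental ones, and TalaR-M replicate 2 was the highest. RAD51C rose by 1.10 ± 0.25 in TalaR-M (adjusted p = 0.016), by 0.79 ± 0.10 without replicate 2 (adjusted p = 4.95e-05) and by 0.74 ± 0.092 in TalaR-DF (adjusted p = 2.37e-05). XRCC3 (chromosome 14, 103697609 to 103715504) measured 3.90, 3.84 and 3.86 log2 CPM in parental replicates 1, 2 and 3, 4.73, 4.62 and 4.82 in TalaR-DF and 4.82, 6.0 and 4.99 in TalaR-M. It showed the same order, with all 6 TalaR libraries above the parental range. XRCC3 was 2.66-fold higher in TalaR-M (log2 1.41 ± 0.29, adjusted p = 0.00873) and 2.06-fold higher without replicate 2 (adjusted p = 2.93e-06), and it rose by 0.86 ± 0.087 in TalaR-DF (adjusted p = 4.81e-06).

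RAD51D was the third paralog to pass in TalaR-M, with a rise of 0.81 with all replicates and 0.83 without replicate 2, against 0.50 in TalaR-DF. Its TalaR-M level was higher than in TalaR-DF by 0.33 ± 0.12 without replicate 2 (adjusted p = 0.0389). With replicate 2 that difference was 0.31 (adjusted p = 0.183). XRCC2 rose by 0.82 in TalaR-DF and by 0.52 in TalaR-M without replicate 2, against 0.18 with it (adjusted p = 0.651). RAD51B ranged from 2.95 to 3.36 log2 CPM over the 9 libraries, and its change was 0.10 in TalaR-DF (95% interval -0.16 to 0.37) and 0.05 in TalaR-M without replicate 2 (-0.24 to 0.34).

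All 4 genes that act in strand invasion passed in TalaR-DF, and all but RAD54L in TalaR-M without replicate 2. RAD51AP1, which helps the filament join the sister strand (chromosome 12, 4538798 to 4560047), measured 3.50, 3.57 and 3.53 log2 CPM in parental replicates 1, 2 and 3, 4.38, 4.47 and 4.59 in TalaR-DF and 5.02, 2.96 and 4.76 in TalaR-M. TalaR-M replicates 1 and 3 were the highest libraries, TalaR-DF came next and replicate 2 was the lowest. RAD51AP1 was 2.57-fold higher in TalaR-M without replicate 2 (log2 1.36 ± 0.11, adjusted p = 7.57e-07), and its log2 change was 0.72 with it (adjusted p = 0.292). In TalaR-DF it rose by 0.95 ± 0.093 (adjusted p = 3.52e-06). Without replicate 2 it was higher in TalaR-M than in TalaR-DF by 0.41 ± 0.11 (adjusted p = 0.0087), but with all replicates the sign was opposite at -0.23 (adjusted p = 0.735). RAD54B, a translocase that works on the joined strands (chromosome 8, 94371960 to 94475115), measured 2.01, 1.87 and 2.18 log2 CPM in parental replicates 1, 2 and 3, 3.13, 3.09 and 3.05 in TalaR-DF and 3.02, 3.10 and 2.65 in TalaR-M. It had the lowest parental mean of the 40 genes, 2.02, and every TalaR library lay above all parental ones. RAD54B was 2.09-fold higher in TalaR-DF (log2 1.07 ± 0.13, adjusted p = 1.56e-05) and rose by 0.90 ± 0.17 in TalaR-M (adjusted p = 0.00546) or 0.81 without replicate 2 (adjusted p = 0.000569). RAD52, which anneals single strands, rose by 0.34 in TalaR-DF and by 0.61 in TalaR-M without replicate 2. RAD54L, the paralog of RAD54B, rose by 0.48 in TalaR-DF, and its TalaR-M value without replicate 2 was 0.28 (adjusted p = 0.0529). With all replicates RAD52 and RAD54L were at 0.36 and -0.044 in TalaR-M and did not pass.

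Among the 5 genes that dissolve joined molecules, 4 passed in TalaR-DF, and BLM was the gene that also passed between TalaR-M and TalaR-DF with all replicates. BLM, a RecQ helicase (chromosome 15, 90717346 to 90816166), measured 4.78, 4.81 and 4.70 log2 CPM in parental replicates 1, 2 and 3, 5.37, 5.45 and 5.58 in TalaR-DF and 4.86, 4.26 and 4.83 in TalaR-M. TalaR-M replicates 1 and 3 lay just above the parental range and every TalaR-DF library lay above all others. BLM was 1.63-fold higher in TalaR-DF (log2 0.70 ± 0.076, adjusted p = 7.97e-06), whereas TalaR-M differed from parental by -0.11 (adjusted p = 0.667) and without replicate 2 by 0.082 (95% interval -0.10 to 0.27). Against TalaR-DF, BLM was lower in TalaR-M, with a change of -0.81 ± 0.18 (adjusted p = 0.0247) and of -0.62 ± 0.085 without replicate 2 (adjusted p = 0.00011). Its partners TOP3A, a topoisomerase, and RMI1 rose by 0.34 and 0.76 in TalaR-DF and by 0.27 and 0.79 in TalaR-M without replicate 2. RMI2, the small subunit of the complex, did not pass in TalaR-DF (0.11, adjusted p = 0.316) and fell in TalaR-M without replicate 2 (-0.28, adjusted p = 0.0409), although replicate 2 itself was its highest library at 4.35 log2 CPM. WRN, another RecQ helicase, rose by 0.32 in TalaR-DF and 0.24 in TalaR-M without replicate 2. With all replicates TOP3A, RMI1, RMI2 and WRN ranged from -0.60 (WRN) to 0.069 (TOP3A) and did not pass.

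The structure-selective nucleases cut the remaining junctions, and 3 of the 4 passed in TalaR-DF and GEN1 alone in TalaR-M without replicate 2. GEN1, a resolvase (chromosome 2, 17753858 to 17788946), measured 3.97, 4.25 and 4.23 log2 CPM in parental replicates 1, 2 and 3, 4.60, 4.91 and 4.78 in TalaR-DF and 5.04, 4.11 and 5.05 in TalaR-M. TalaR-M replicates 1 and 3 were the 2 highest libraries and no TalaR-DF library overlapped the parental range. GEN1 rose by 0.61 ± 0.11 in TalaR-DF (adjusted p = 0.000345) and by 0.89 ± 0.11 in TalaR-M without replicate 2 (adjusted p = 3.91e-05), against 0.58 with it (adjusted p = 0.142). SLX4, the scaffold that holds the nucleases, rose by 0.22 in TalaR-DF (adjusted p = 0.0388) and was lower in TalaR-M than in TalaR-DF without replicate 2 (-0.42, adjusted p = 0.00393). EME1 rose by 0.49 in TalaR-DF, and its catalytic partner MUS81 did not pass there (-0.031, 95% interval -0.30 to 0.24) or in TalaR-M without replicate 2 (0.30, adjusted p = 0.0806). With all replicates SLX4, EME1 and MUS81 were at -0.70, 0.091 and 0.44 in TalaR-M, and none of them passed.

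In the Fanconi core complex with its ubiquitin-conjugating enzyme UBE2T, 7 of the 9 genes passed as higher in TalaR-DF and 7 in TalaR-M without replicate 2, where FANCF passed as lower. FANCA, a core subunit (chromosome 16, 89726683 to 89816977), measured 3.76, 3.68 and 3.78 log2 CPM in parental replicates 1, 2 and 3, 4.99, 5.25 and 4.81 in TalaR-DF and 4.87, 3.98 and 5.15 in TalaR-M. No TalaR library overlapped the parental range, and TalaR-M replicate 2 was the lowest of the TalaR libraries. FANCA had the largest change of the 40 genes in TalaR-DF, 2.43-fold (log2 1.28 ± 0.11, adjusted p = 1.19e-06). In TalaR-M the value was 0.93 ± 0.29 (adjusted p = 0.0508) and 1.27 ± 0.13 without replicate 2 (adjusted p = 6.06e-06). The 95% interval for TalaR-M against TalaR-DF without replicate 2 was -0.29 to 0.28. FANCA exons overlap those of ZNF276, which was higher by 0.53 in TalaR-DF and 0.78 in TalaR-M without replicate 2, and the library kit keeps strand but the counting is not stated to use it. FANCM, the DNA translocase that anchors the core complex (chromosome 14, 45135930 to 45200890), measured 4.26, 3.97 and 4.07 log2 CPM in parental replicates 1, 2 and 3, 4.98, 5.16 and 5.28 in TalaR-DF and 5.03, 2.88 and 4.91 in TalaR-M. Every TalaR-DF library and TalaR-M replicates 1 and 3 lay above the parental range, and replicate 2 lay below it. FANCM was 2.06-fold higher in TalaR-DF (log2 1.04 ± 0.10, adjusted p = 3.53e-06). In TalaR-M its value was 0.18 (adjusted p = 0.814) and 0.87 without replicate 2 (adjusted p = 4.23e-05).

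The other core genes changed less than FANCA and FANCM in TalaR-DF. FANCB, which helps activate the ligase, rose by 0.72 in TalaR-DF and 0.51 in TalaR-M without replicate 2. FANCL, the ubiquitin ligase, rose by 0.59 and 0.65. FANCC, a subunit that binds FANCE, was the only core gene to pass in TalaR-M with all replicates (0.66, adjusted p = 0.0189), and it rose by 0.43 in TalaR-DF. UBE2T and FANCG, a partner of FANCA, rose by 0.46 and 0.18 in TalaR-DF and by 0.33 and 0.21 in TalaR-M without replicate 2. FANCE, which contacts FANCD2, and FANCF, an adaptor of the core complex, did not pass in TalaR-DF, with 95% intervals of -0.30 to 0.30 and -0.24 to 0.16. FANCF was lower in TalaR-M without replicate 2 (-0.27 ± 0.10, adjusted p = 0.035), and FANCE was at -0.095 (adjusted p = 0.617). With all replicates FANCB, FANCE, FANCF, FANCG, FANCL and UBE2T ranged from -0.34 (FANCF) to 0.56 (UBE2T) in TalaR-M and did not pass.

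FANCD2 and FANCI, the pair that the core complex ubiquitylates, and the helicase BRIP1 passed in TalaR-DF and in TalaR-M without replicate 2. FANCD2 (chromosome 3, 10026370 to 10101932) measured 5.38, 5.56 and 5.41 log2 CPM in parental replicates 1, 2 and 3, 6.14, 6.12 and 6.11 in TalaR-DF and 5.95, 5.03 and 6.02 in TalaR-M. Its TalaR-DF libraries lay within 0.03 of each other and above all others, and replicate 2 was the lowest library. FANCD2 was 1.6-fold higher in TalaR-DF (log2 0.67 ± 0.063, adjusted p = 2.61e-06) and 1.45-fold higher in TalaR-M without replicate 2 (adjusted p = 5.11e-05), with a log2 change of 0.22 when it was included (adjusted p = 0.538). FANCI rose by 0.43 and 0.32 and BRIP1 by 0.24 and 0.36, while with all replicates they were at 0.026 and -0.20 in TalaR-M and did not pass. BRCA1 and FANCD2 have pseudogenes in GENCODE 44 that can share reads with them, as do RAD51AP1, RAD52 and RBBP8, and exons of RAD54L, EME1, FANCL, FANCI, RAD51D, RAD50 and FANCG overlap those of another gene model, so the values of these genes are less certain. In TalaR-DF the overlapping gene LRRC59 (EME1) rose by 0.71 and POLG (FANCI) by 0.45, LRRC41 (RAD54L) fell (-0.43), and VRK2 (FANCL) did not pass (-0.079).

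Levels of different genes were compared per length, as log2 CPM per kilobase of the canonical GENCODE 44 transcript. In parental cells UBE2T stood highest at 5.29, followed by RBBP8 at 4.33 and NBN at 4.17. RAD51D, with a canonical transcript of 9966 bases, stood lowest at 0.0098, followed by BRCA2 at 0.24 and RAD54B at 0.40. In TalaR-DF cells UBE2T and RBBP8 were again highest at 5.75 and 5.06, and BRCA2 had a level of 1.31 and RAD54B of 1.47. The isoforms that these cells use are not known.

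Other genes of the pathway were taken from a list of 46. In TalaR-DF, 23 of 42 tested passed as higher, beside 34.2% of all genes, and 3 as lower, with a median of 0.27. The lower genes, named after their values were seen, were UBE2N (-0.17), FAAP20 (-0.53, listed as C1orf86) and SEM1 (-0.29, listed as SHFM1), which are a ubiquitin-conjugating enzyme, a core complex partner and a small BRCA2 partner. In TalaR-M, 5 of 44 passed as higher, a share near the 10.3% of all genes, and 1 as lower. Without replicate 2 the counts were 17, beside 30.2% of all genes, and 7, beside 30%, with a median of 0.14. RFWD3, a ubiquitin ligase of crosslink repair, and DMC1, a recombination protein of meiosis, were past 2-fold there with 1.04 and 1.10, as was the damage-marking histone H2AX (1.01, listed as H2AFX). DMC1 (1.08) and H2AX (1.33) were past 2-fold with all replicates too. DMC1 was not tested in TalaR-DF, as fewer than 3 of those 6 libraries held it above 1 CPM. It thus entered the TalaR-M tests only through TalaR-M libraries, and most of the parental and TalaR-DF values were at 0 log2 CPM.

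HR genes are expressed mainly in cells that copy their DNA, so genes of the cell cycle were set beside them. Of all genes tested, 34.2% passed as higher in TalaR-DF, 10.3% in TalaR-M and 30.2% in TalaR-M without replicate 2. The shares that passed as lower were 32%, 13.2% and 30%. Of 25 S phase genes, 24 passed as higher in TalaR-DF and E2F7, a repressor, as lower (-0.48), and the median was 0.69. GINS2, a subunit of the replication helicase, rose by 1.96, E2F8 by 2.54 and E2F2 by 1.32. Of 22 genes of G2 and mitosis, 21 passed as higher there, with a median of 0.64, and MKI67, the proliferation antigen, rose by 1.10. In TalaR-M with all replicates 13 S phase genes and 6 of the mitotic genes passed, all as higher, and E2F2 (2.07), GINS2 (2.19), TYMS (1.37), E2F1 (1.44), E2F8 (2.17), BIRC5 (1.04) and AURKB (1.01) were past 2-fold. Without replicate 2, 21 S phase genes passed as higher and 1 as lower, with a median of 0.62, and 20 mitotic genes as higher, with a median of 0.66. E2F8 (3.04), E2F2 (2.08), GINS2 (1.80), TYMS (1.18), E2F1 (1.12) and RRM2 (1.06) were past 2-fold there, as were KIF20A, MKI67, FOXM1 and CCNA2 with 1.45, 1.20, 1.09 and 1.07.

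The summed level of the S phase genes was 11.06 to 11.09 log2 CPM in parental, 11.63 to 11.74 in TalaR-DF and 11.44 to 11.60 in TalaR-M replicates 1 and 3, with 11.39 in replicate 2. The G2 and mitosis genes summed to 11.59 to 11.65, 12.15 to 12.25 and 12.22 to 12.36, with 11.69 in replicate 2. The 40 HR and Fanconi genes summed to 10.20 to 10.23, 10.61 to 10.74 and 10.56 to 10.62, with 9.75 in replicate 2. In all 3 sums TalaR-DF and TalaR-M replicates 1 and 3 lay above parental cells, and in replicate 2 the cell cycle sums stayed above parental while the HR and Fanconi sum lay below it. Values of replicate 2 varied with transcript length, as described above, and lengths were not compared between the lists. The part of length in that contrast was not tested. The part of the cell cycle genes in the change of the HR and Fanconi genes was not tested.

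**Figure D5:**
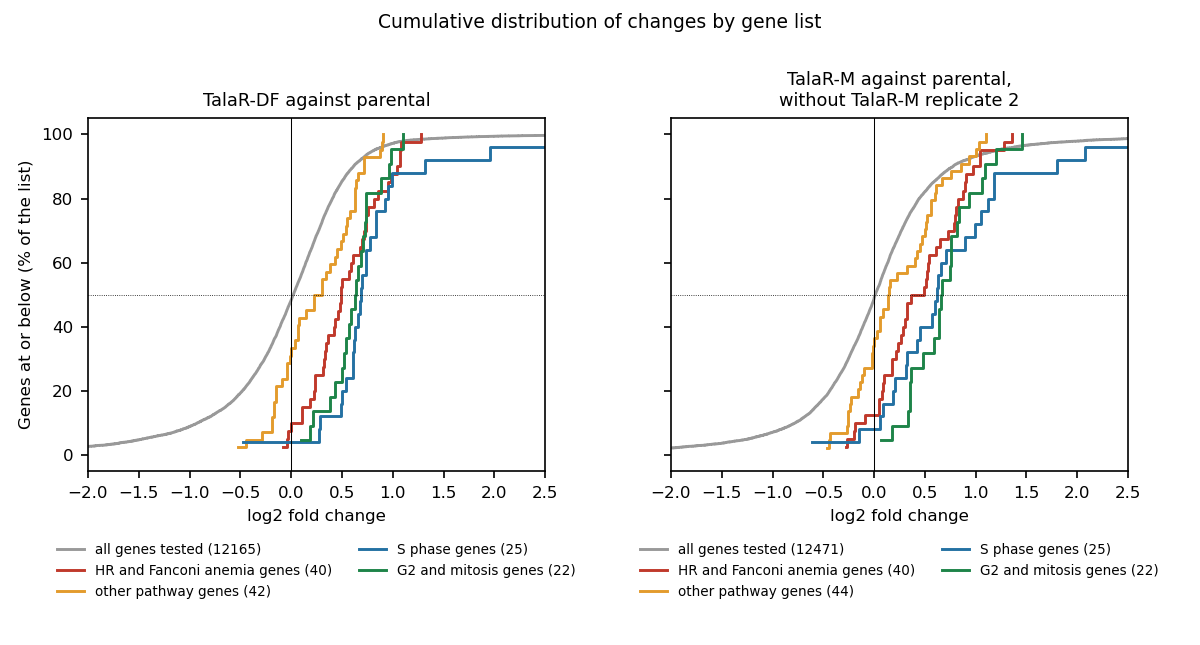
Cumulative share of genes (vertical axis, % of each list) at or below a log2 fold change (horizontal axis) against parental cells, for TalaR-DF (left) and TalaR-M without replicate 2 (right), with the number of genes in each list in brackets. At the median the HR and Fanconi curve lies to the right of all genes tested in both panels (0.49 and 0.43). The S phase and G2 and mitosis medians lie further right (0.62 to 0.69). The curves do not keep this order throughout, since the HR and Fanconi curve ends at 1.28 and 1.36 and that of all genes runs further.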

How the data were processed

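PSN1 RNAseq libraries were prepared by the authors from poly(A) RNA with a stranded kit and sequenced in pairs. The deposited log2 values are log2 CPM with a prior count and an effective library size, and the authors set values under 0 to 0. The prior count was about 1 read, except in TalaR-M replicate 2, where it was 0.565. These settings were read from the equal steps between values, which gave whole reads (within 0.001) for 100% of values under 50 CPM. The submitters' processing notes name hg38, and the aligner, counter and annotation are not given in the sources used here. Columns headed maintain were assigned to TalaR-M and those headed withdraw to TalaR-DF, from the sample titles. Replicates differed by more than counting noise, so none was counted as a duplicate.

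A gene entered the tests if 3 or more libraries held it above 1 CPM. The tests used limma 3.58.1 in R 4.3.3 (moderated test, mean-variance trend, Benjamini-Hochberg adjustment over all genes tested), and the script was tested on simulated data. Both TalaR-M comparisons used all 9 libraries and TalaR-DF against parental used 6. With 3 against 3 libraries an exact permutation test cannot give a p under 0.1, so none was used. A fit without a replicate assumes that the remaining ones vary alike. The alternatives were other filters, an added pseudocount of 1 CPM, rescaling, no trend, a replicate block, other groups in the fit, library weights and leaving out each library. The 40 genes and the other lists were chosen with earlier results of these data known. Values in every library are given for BRCA1, BRCA2, PALB2, FANCD2 and ATM, for genes past 2-fold in any comparison and for the gene with the smallest p per role in TalaR-DF. Of other lists, genes past 2-fold were named, at most 6 per comparison. In these lists 11 genes were matched by older symbols. Some list genes are not reported here. Gene positions and transcript lengths are from GENCODE 44 on hg38, and the plots were made in Python 3.11.15 (matplotlib 3.10.9).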

Additional observations from a re-analysis of the deposited data

How the results depend on the processing

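The count of the 40 genes that passed in TalaR-DF against parental cells was 34, and it ranged from 30 to 33 with 1 library left out. It was 4 with all 9 libraries in the fit, where the library that stood apart adds to the spread, and 5 at 2-fold as well. In TalaR-M against parental cells the count was 5, and it became 3 with only the 2 groups compared, 28 with library weights and 2 at 2-fold as well, and it ranged from 3 to 28 with 1 library left out (28 without TalaR-M replicate 2). In TalaR-M against TalaR-DF it was 1, and it became 0 with only the 2 groups compared, 8 with library weights and 0 at 2-fold as well, and it ranged from 0 to 10 with 1 library left out (10 without TalaR-M replicate 2). The other filters, the pseudocount, rescaling and the fit without a trend kept each count within 1.5 times. Of all calls in TalaR-DF against parental cells 51.6% were higher, and 36.5% with all 9 libraries. In TalaR-M against TalaR-DF that share was 64.7%, and it became 79.4% with the 2 groups, 73.4% with the replicate block and 47.6% with library weights.

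With the replicate number as a block (replicate block), 34 of the 40 genes passed in TalaR-DF and 4 in TalaR-M, each against parental cells, and 0 passed between TalaR-M and TalaR-DF cells (for BLM the adjusted p was 0.0604). The numbers did not pair the libraries: same-numbered deviations correlated at 0.085, 0.15 and -0.13 for TalaR-DF and parental cells, at 0.081, 0.0044 and -0.0092 for TalaR-M and parental cells and at -0.42, -0.17 and 0.22 for TalaR-M and TalaR-DF.

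Rescaling moved the median of all genes from -0.091 to 0.014 in TalaR-M against parental and from -0.088 to 0.028 in TalaR-M against TalaR-DF, and the medians of the 40 genes moved with it, from 0.095 to 0.21 and from -0.45 to -0.29. Some single genes changed sign. With library weights, ATM and BLM became 0.10 and 0.078 in TalaR-M against parental, and RAD51AP1, ATM, GEN1 and FANCA became 0.37, 0.16, 0.27 and 0.00060 in TalaR-M against TalaR-DF, where GEN1 became 0.13 on rescaling. With 1 library left out, TalaR-M against parental ranged from -0.17 to 0.54 for BRCA1, -0.20 to 0.97 for BARD1, -1.11 to 0.10 for ATM, -0.21 to 0.90 for DNA2, -0.22 to 0.082 for BLM and -0.20 to 0.87 for FANCM. ATM ranged from -0.21 to 0.079 in TalaR-DF against parental. TalaR-M against TalaR-DF ranged from -0.62 to 0.41 for RAD51AP1, -1.03 to 0.17 for ATM and -0.18 to 0.28 for GEN1. Other causes of these changes were not tested. The fewest reads behind a value were 28, for BARD1 in TalaR-M replicate 2.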
